A study of Mus musculus with 516 samples.

Results

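A small set of genes tied to axon regrowth was followed in single mouse cells from dorsal root ganglia, where the cell bodies of sensory neurons lie. They are Tnfrsf12a, Cacna2d1, Gap43, Stmn4, Tubb6 and Sprr1a, taken by name with earlier results of these data known. All 6 are among the 11251 genes of the deposited table. The table holds 516 cells of 4 groups. Of these, 210 were cultured, 99 of them CAST/Ei and the rest C57BL/6, and 306 were naive, likewise of CAST/Ei and C57BL/6. Cultured cells, labelled injured, went through in vitro axotomy: dissociation itself cuts the axons, and the cells were then kept on bare plastic for 48 h, with the mitotic inhibitor ara-C given at 24 h, and lifted with trypsin. Naive cells were captured straight after dissociation and had no culture, ara-C or lifting. Cells were caught singly on a Fluidigm C1 microfluidic chip and their polyadenylated RNA was sequenced. The sources used here do not give the ages, sexes and numbers of animals. Naive cells were dissociated too, so their axons were also cut, but shortly before capture. Time after axotomy, time in culture and these handling steps differ together between cultured and naive cells and cannot be told apart. CAST/Ei and C57BL/6 are inbred mouse strains; no engineered allele is named for any group.

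A sensory neuron that has lost its axon can rebuild it by switching on a growth programme, in which transcription factors such as Atf3, Jun and Sox11 are induced and the cytoskeleton and membrane of a new growth cone are supplied. The genes studied here stand at different places of that programme. Tnfrsf12a encodes Fn14, a small receptor for the cytokine TWEAK. Cacna2d1 encodes the alpha-2-delta-1 subunit of voltage-gated calcium channels, which binds gabapentin and thrombospondins. Gap43 encodes an inner-membrane phosphoprotein of the growth cone. Stmn4 encodes a stathmin that binds tubulin dimers, and Tubb6 a beta-tubulin of microtubules. Sprr1a encodes a small proline-rich protein of the cornified envelope of skin that is known to appear in sensory neurons after nerve injury.

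Each cell is its own library without molecular identifiers, and the labels name no animal, culture or chip run, so each of the 4 groups is 1 sample. No test between groups is therefore possible. Levels are CPM, reads of a gene scaled to the total reads of a cell, or of the summed reads of a set of cells. A gene is called higher or lower past 2-fold in (CPM + 1), and the 95% intervals of fold changes in CPM cover counting error of reads only, which amplification makes too narrow. Cells had between 13932 and 2978345 reads, with a median of 839147. Clustering without the 6 genes and without the pathway genes described below gave 15 clusters, and those with a list of 14 neuron markers highest were called neuron-like. Neuron-like cells made up 65 of the CAST/Ei cultured cells (65.7%, exact binomial interval 55.4 to 74.9%) and 34 of the C57BL/6 cultured cells (30.6%, 22.2 to 40.1%), beside 34 and 77 other cells. Of 241 naive neuron-like cells 85 were C57BL/6 (64.4% of its naive cells, beside 47 others), and the rest were CAST/Ei (89.7%, beside 18 others). The other cultured cells were satellite or Schwann-like (clusters 10 and 12) and fibroblast-like (cluster 9), while the other naive cells fell in 2 unnamed clusters. Cluster 5 mixed neuron, glial and endothelial genes. Cluster 1, with 31 C57BL/6 naive cells, had the neuron markers high at a median sum of 14217 CPM but the mural marker Rgs5 among its 10 leading genes, so it stayed unnamed, and results that change with it are given with and without it. Cultured cells formed clusters of their own, apart from 2 cells.

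Sprr1a ranked first of all genes for the difference between cultured and naive neurons, and its promoter is shown because it alone of the 3 promoters read here held AP-1 or TATA box letters. Those of Gap43, Stmn4 and Tubb6 were not read. The stretch lies at chr3:92485901-92486131 of GRCm38.p6 on the minus strand, 250 to 20 bases before the transcription start in RefSeq, and is written 5′ to 3′ with motif matches in capitals.
Sprr1a: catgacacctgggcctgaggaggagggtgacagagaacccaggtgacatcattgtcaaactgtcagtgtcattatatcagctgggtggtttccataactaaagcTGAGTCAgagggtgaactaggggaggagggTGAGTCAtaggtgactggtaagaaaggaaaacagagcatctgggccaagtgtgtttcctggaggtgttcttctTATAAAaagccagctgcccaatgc
2 of the capital runs are the AP-1 motif TGANTCA, the site of Jun, Fos and Atf3 family factors. The last run, TATAAA, begins 43 bases before the start. Of 32851 mouse promoters scanned on both strands over the same window, 6.36% held TGANTCA, 0.289% held 2 or more copies of it, and 11.8% held TATAAA. No match to TGACGTCA (in 1.30% of promoters) or TTCNNNGAA (in 6.49%) was present. The loose CANNTG, found in 63.6% of promoters, occurred 6 times and is not capitalised. In the windows of Tnfrsf12a and Cacna2d1, which were 57.6% and 80.95% G or C against 49.4% for Sprr1a, no match was found to TGANTCA or TATAAA, nor to the other spelled-out motifs apart from 1 CANNTG in that of Tnfrsf12a. A match is a run of letters, not a shown binding site.

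All 6 genes were at least 2-fold higher in cultured than in naive neuron-like cells, in CAST/Ei and in C57BL/6. They were chosen with earlier results of these data known, so this count describes them and tests nothing. For comparison, 23% of all 11251 genes passed the same threshold upward and 22.4% downward in CAST/Ei, and 21.1% upward and 23% downward in C57BL/6. The median log2 ratio of the 6 was 2.13 in CAST/Ei and 2.60 in C57BL/6, beside 0.02 and -0.12 over all genes. Sprr1a was nearly absent before culture, Tnfrsf12a and Tubb6 differed by a middle size, and Cacna2d1, Gap43 and Stmn4 differed least, the first pair from a high naive level and Stmn4 from a low one.

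**Figure D1:**
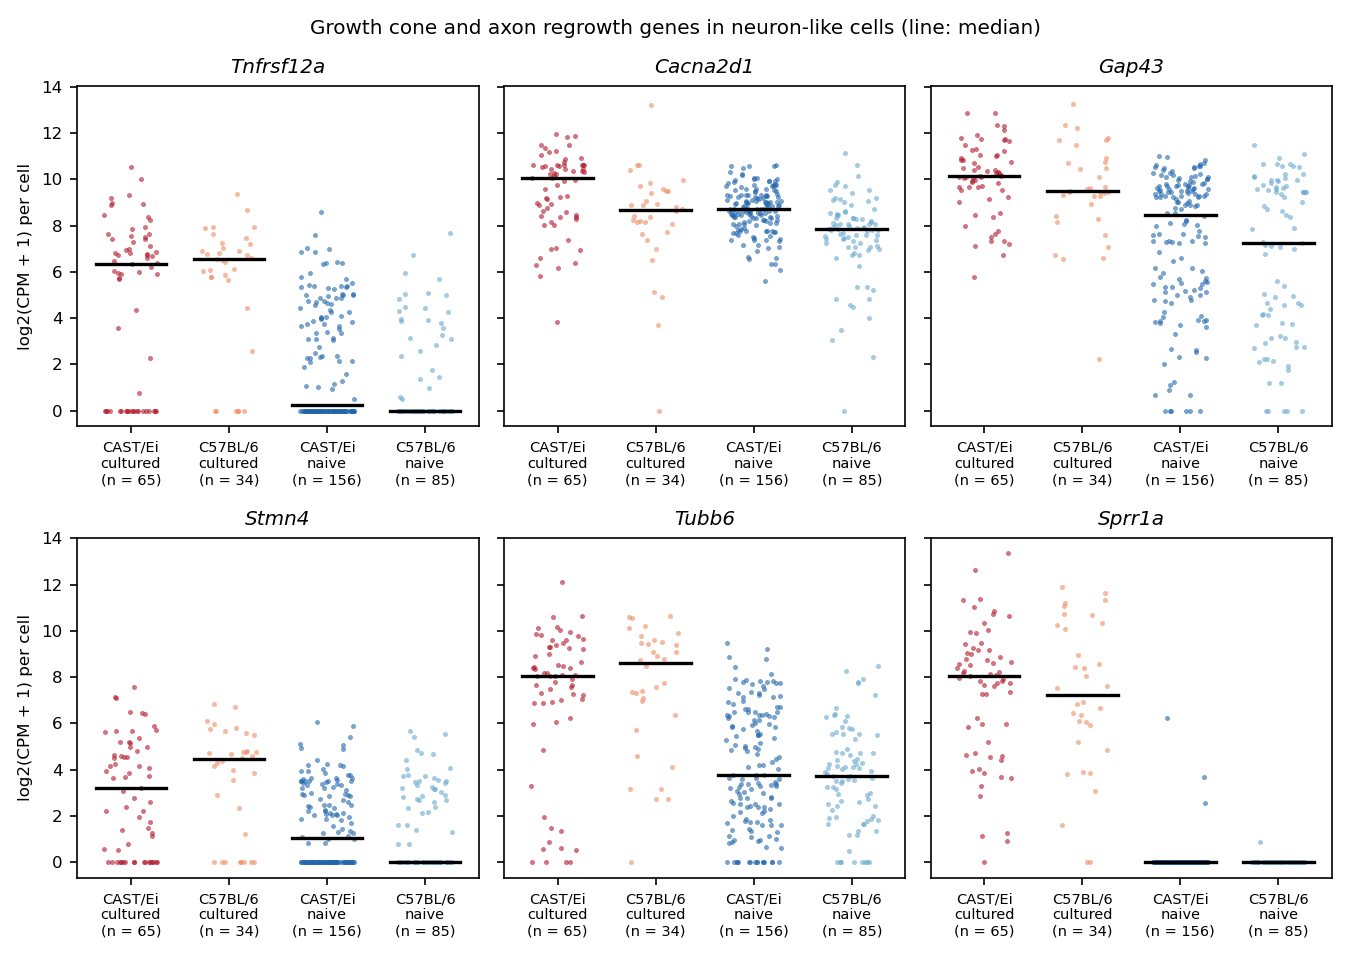
Level of each of the 6 genes in every neuron-like cell, as log2(CPM + 1) on the vertical axis, by group on the horizontal axis, with a black line at the median. Sprr1a is at 0 in all naive cells but 3 of CAST/Ei and 1 of C57BL/6, while Cacna2d1 and Gap43 overlap widely between cultured and naive cells.

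The receptor Tnfrsf12a ran in cultured neuron-like cells between 0 and 1471 CPM in CAST/Ei (median 81.2) and between 0 and 655 CPM in C57BL/6 (median 92.4). In naive neuron-like cells it ran between 0 and 385 CPM in CAST/Ei (median 0.215) and between 0 and 205 CPM in C57BL/6 (median 0). The ranges overlap, since 20 of 65 CAST/Ei and 6 of 34 C57BL/6 cultured cells had no read of it, but so had 78 CAST/Ei and 56 C57BL/6 naive cells. Summed reads gave 103.4 CPM in CAST/Ei cultured against 15.04 CPM in CAST/Ei naive cells, 6.88-fold higher (interval 6.57 to 7.21). In C57BL/6 they gave 98.6 CPM in cultured against 7.52 CPM in naive cells, 13.1-fold higher (11.9 to 14.5). Tnfrsf12a, at chr17:23675445-23677468 on the minus strand of mm10, has 1932 bases of exon. Its ligand gene, Tnfsf12, is not among the genes of the deposited table, so its level could not be read.

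The channel subunit Cacna2d1 was already high in naive neurons. In cultured neuron-like cells it ran between 13.1 and 3998 CPM in CAST/Ei (median 1066) and between 0 and 9680 CPM in C57BL/6 (median 409). Naive neuron-like cells ran between 48.2 and 1563 CPM in CAST/Ei (median 420) and between 0 and 2233 CPM in C57BL/6 (median 232). Summed levels were 1329 CPM in CAST/Ei cultured against 560 CPM in naive cells, 2.37-fold higher (2.35 to 2.39), and 1039 CPM in C57BL/6 cultured against 350 CPM in naive cells, 2.97-fold higher (2.91 to 3.03). The C57BL/6 difference depends on 1 cell. It carried 50.04% of the Cacna2d1 reads of its set, at 9680 CPM and with only 2596 genes detected. Without the cell with the most reads in each set, the C57BL/6 levels were 549 CPM in cultured and 320 CPM in naive cells, a log2 ratio of 0.78, which is below 2-fold, while CAST/Ei stayed above it at 1.18. Cacna2d1 spans 439821 bases at chr5:15934691-16374511 on the plus strand, with 42 blocks of exon.

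Gap43 ran in cultured neuron-like cells between 54.4 and 7596 CPM in CAST/Ei (median 1136) and between 3.71 and 9793 CPM in C57BL/6 (median 714). In naive neuron-like cells it ran between 0 and 2065 CPM in CAST/Ei (median 355) and between 0 and 2908 CPM in C57BL/6 (median 150.6). Every one of the 99 cultured neuron-like cells had a read of Gap43, and only 6 CAST/Ei and 5 C57BL/6 naive cells had none. The sums were 1367 CPM in CAST/Ei cultured against 462 CPM in naive cells, 2.96-fold higher (2.93 to 2.99), and 1330 CPM in C57BL/6 cultured against 527 CPM in naive cells, 2.53-fold higher (2.48 to 2.57). With cluster 1 counted as neuron-like, the C57BL/6 naive sum was 382 CPM and the log2 ratio 1.80, beside 1.33 without it. Per kilobase of exon Gap43 was the most abundant of the 6 in cultured neuron-like cells, at 898 CPM per kb in CAST/Ei and 873 in C57BL/6. It lies at chr16:42248442-42340651 on the minus strand.

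Stmn4 was the scarcest of the 6 in cultured neuron-like cells, while in naive ones Sprr1a was scarcer. It ran in cultured neuron-like cells between 0 and 189 CPM in CAST/Ei (median 8.17) and between 0 and 114.2 CPM in C57BL/6 (median 20.8), and in naive neuron-like cells between 0 and 65.2 CPM in CAST/Ei (median 1.09) and between 0 and 50.5 CPM in C57BL/6 (median 0). The sums of 12.6 CPM in CAST/Ei cultured and 5.19 CPM in naive cells differed 2.42-fold (2.20 to 2.67), and those of 23.6 CPM in C57BL/6 cultured and 6.81 CPM in naive cells 3.46-fold (3.03 to 3.96). With a pseudocount of 10 CPM in place of 1 CPM both log2 ratios were under 1, at 0.57 in CAST/Ei and 0.998 in C57BL/6. Per kilobase it reached 6.57 CPM in CAST/Ei and 12.3 CPM in C57BL/6 cultured cells. The gene lies at chr14:66344296-66361680 on the plus strand.

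Tubb6 ran in cultured neuron-like cells between 0 and 4511 CPM in CAST/Ei (median 264) and between 0 and 1602 CPM in C57BL/6 (median 397). In naive neuron-like cells it ran between 0 and 712 CPM in CAST/Ei (median 12.6) and between 0 and 360 CPM in C57BL/6 (median 12.4). Only 16 CAST/Ei and 8 C57BL/6 naive cells had no read. With every cell thinned to 200000 reads, at least 5 reads were found in 82.8% of CAST/Ei and 78.6% of C57BL/6 cultured cells, against 43.9% of CAST/Ei and 34.2% of C57BL/6 naive cells. The sums were 435 CPM in CAST/Ei cultured against 49.9 CPM in naive cells, 8.72-fold higher (8.51 to 8.94), and 395 CPM in C57BL/6 cultured against 32.6 CPM in naive cells, 12.1-fold higher (11.5 to 12.7). Tubb6 lies on chromosome 18. Beta-tubulin genes are close copies in their coding parts, and how reads that fit several of them were counted is not given in the sources used here.

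Sprr1a went with culture more than any other gene of the table, ranking 1 of 11251 by log2 ratio in both strains. It ran in cultured neuron-like cells between 0 and 10616 CPM in CAST/Ei (median 263) and between 0 and 3878 CPM in C57BL/6 (median 151.7). A read was present in 64 of 65 and 32 of 34 of these cells, against 3 CAST/Ei and 1 C57BL/6 of the 241 naive cells. The summed levels were 616 CPM in CAST/Ei cultured and 0.647 CPM in naive cells, 952-fold higher (785 to 1166). In C57BL/6 they were 601 CPM in cultured and 0.0148 CPM in naive cells, where the naive value is 1 read, so the ratio of 40515 has a counting interval whose lower bound is 7270 and whose upper bound is 1600390. Cluster 1, left out of this naive sum, held 13 reads of Sprr1a, all in 1 cell (0.478 CPM over the cluster). The C57BL/6 ratio is therefore lower with cluster 1 counted as neuron-like, and its size is uncertain beyond the counting interval. Of the naive CAST/Ei reads, 86.4% came from 1 cell, and the naive sum without it was 0.0886 CPM. That cell, in cluster 3, held Sprr1a at 74.8 CPM together with Atf3 at 583 CPM, Sox11 at 899 CPM and Gap43 at 1152 CPM. Even the cultured cells spread widely, with quartiles of 35.8 and 572 CPM in CAST/Ei and of 41.97 and 1186 CPM in C57BL/6. Sprr1a, the gene whose promoter is printed above, lies at chr3:92483952-92485895 on the minus strand and has 806 bases of exon. Per kilobase its cultured level, 764 CPM in CAST/Ei and 746 CPM in C57BL/6, was second of the 6 to Gap43.

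Detection was also counted cell by cell. After thinning every cell to 200000 reads and asking for at least 5 reads, the median number of the 6 detected was 5 in cultured and 2 in naive neuron-like cells of each strain. All 6 were detected in 10 of 58 CAST/Ei and 6 of 28 C57BL/6 cultured cells and in 0 of 227 naive cells. In naive cells the pair found was mostly Cacna2d1, in every CAST/Ei and 72 of 79 C57BL/6 cells, and Gap43, in 78.4% of CAST/Ei and 54 of 79 C57BL/6 cells. Stmn4 was the gene most often missing from cultured cells, being detected in 18 of 58 CAST/Ei (31.03%, exact interval 19.5 to 44.5%) and 9 of 28 C57BL/6 cells (32.1%, 15.9 to 52.4%), or in 52.3% and 58.8% without thinning. Sprr1a was detected in 46 of 58 CAST/Ei cultured cells (79.3%, 66.6 to 88.8%) and 22 of 28 C57BL/6 cultured cells (78.6%, 59.05 to 91.7%). In naive cells it was detected in 1 CAST/Ei cell (0.676%, 0.0171 to 3.71%) and 0 of 79 C57BL/6 cells, which allows a share of up to 3.8% by the limit of 3 counts and 4.56% by the exact interval.

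**Figure D2:**
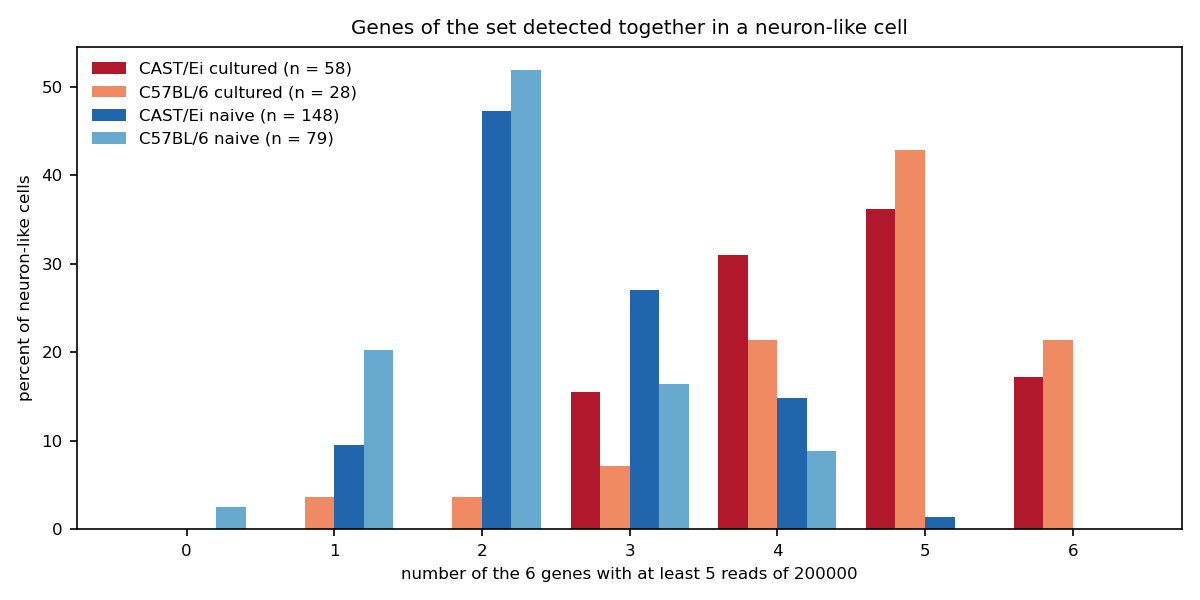
Percent of neuron-like cells (vertical axis) by how many of the 6 genes had at least 5 of 200000 reads (horizontal axis), for the 4 groups. Cultured bars centre on 4 to 6 genes and naive bars on 1 to 3, and no naive cell held all 6.

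The 2 cultured cells that clustered with naive neurons each held part of this pattern; they are named here because of their cluster, and their values were seen first. The C57BL/6 cell in cluster 4 held Sprr1a at 7.42 CPM, Tubb6 at 5.57 CPM, Gap43 at 3.71 CPM, Tnfrsf12a at 20.4 CPM, Cacna2d1 at 447 CPM and no read of Stmn4. The CAST/Ei cell in cluster 14 held Sprr1a at 13.5 CPM, Gap43 at 1096 CPM, Stmn4 at 49.5 CPM, Cacna2d1 at 504 CPM and no read of Tubb6 or Tnfrsf12a. Atf3 was 369 CPM and Sox11 5440 CPM in the C57BL/6 cell, and Atf3 was 403 CPM and Sox11 122.2 CPM in the CAST/Ei cell.

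Cultured neuron-like cells fell almost wholly into 2 clusters, and some of the 6 genes differed between these. Cluster 8 (33 CAST/Ei and 23 C57BL/6 cells, a median of 9034 genes detected) had medians of 114.9 CPM for Tnfrsf12a, 457 CPM for Tubb6 and 21.7 CPM for Stmn4. Cluster 11 (31 CAST/Ei and 10 C57BL/6 cells, 4649 genes) had medians of 0 CPM for Tnfrsf12a, 73.2 CPM for Tubb6 and 0.438 CPM for Stmn4. The medians of these 3 genes were lower in cluster 11 in each strain, although summed Tubb6 in CAST/Ei was 421 CPM in cluster 8 and 459 CPM in cluster 11. The other genes did not divide this way. Gap43 medians in clusters 8 and 11 were 1164 and 1136 CPM in CAST/Ei and 713 and 1248 CPM in C57BL/6. Those of Cacna2d1 were 1218 and 866 CPM in CAST/Ei and 335 and 726 CPM in C57BL/6, so the strains had opposite orders. Sprr1a medians were higher in cluster 11 in both strains, at 151.4 and 404 CPM in CAST/Ei and 119.6 and 266 CPM in C57BL/6, but its sums were lower there, at 685 and 592 CPM in CAST/Ei and 761 and 397 CPM in C57BL/6. Cells of cluster 11 had more reads (a median of 1065060, against 618826 in cluster 8) but fewer genes detected. Satellite and Schwann markers had median sums of 3588 CPM in cluster 8 and 2516 CPM in cluster 11. Those of fibroblast markers were 717 and 548 CPM, and those of cell division genes 959 and 591 CPM. The part of these differences in the split was not tested. With cluster 11 alone as the cultured set, Stmn4 was no longer 2-fold above naive cells, at log2 ratios of 0.05 in CAST/Ei and 0.75 in C57BL/6. The median over all genes was then -0.12 in CAST/Ei and -1.13 in C57BL/6, where the set was only 10 cells. With cluster 8 alone, Cacna2d1 in C57BL/6 was not 2-fold above naive cells, at a log2 ratio of 0.38.

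Within the cultured cells, the 6 genes divided by cell type in the same way in both strains. Cacna2d1, Gap43, Stmn4 and Sprr1a were at least 2-fold higher in neuron-like than in other cells, and Tnfrsf12a and Tubb6 at least 2-fold lower. Of all genes, 19.5% were 2-fold higher and 23% lower in CAST/Ei, and 17.7% higher and 27.7% lower in C57BL/6. Sprr1a summed to 616 CPM in neuron-like and 85.6 CPM in other CAST/Ei cells, 7.20-fold higher (6.97 to 7.44), and to 601 and 18.4 CPM in C57BL/6, 32.8-fold higher (31.01 to 34.6). Gap43 summed to 1367 and 251 CPM in CAST/Ei, 5.45-fold higher, and to 1330 and 87.4 CPM in C57BL/6, 15.2-fold higher. Cacna2d1 was 3.07-fold higher in CAST/Ei, at 1329 against 433 CPM, and 21.2-fold higher in C57BL/6, at 1039 against 49.005 CPM. Stmn4 was 4.34-fold higher in CAST/Ei, at 12.6 against 2.90 CPM, and 16.7-fold higher in C57BL/6, at 23.6 against 1.42 CPM, and 12 of the 34 other CAST/Ei cells had a read of it. In CAST/Ei this Stmn4 ratio was under 2-fold with a pseudocount of 10 CPM, at a log2 ratio of 0.81, and with cluster 11 alone, at 0.71.

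**Figure D3:**
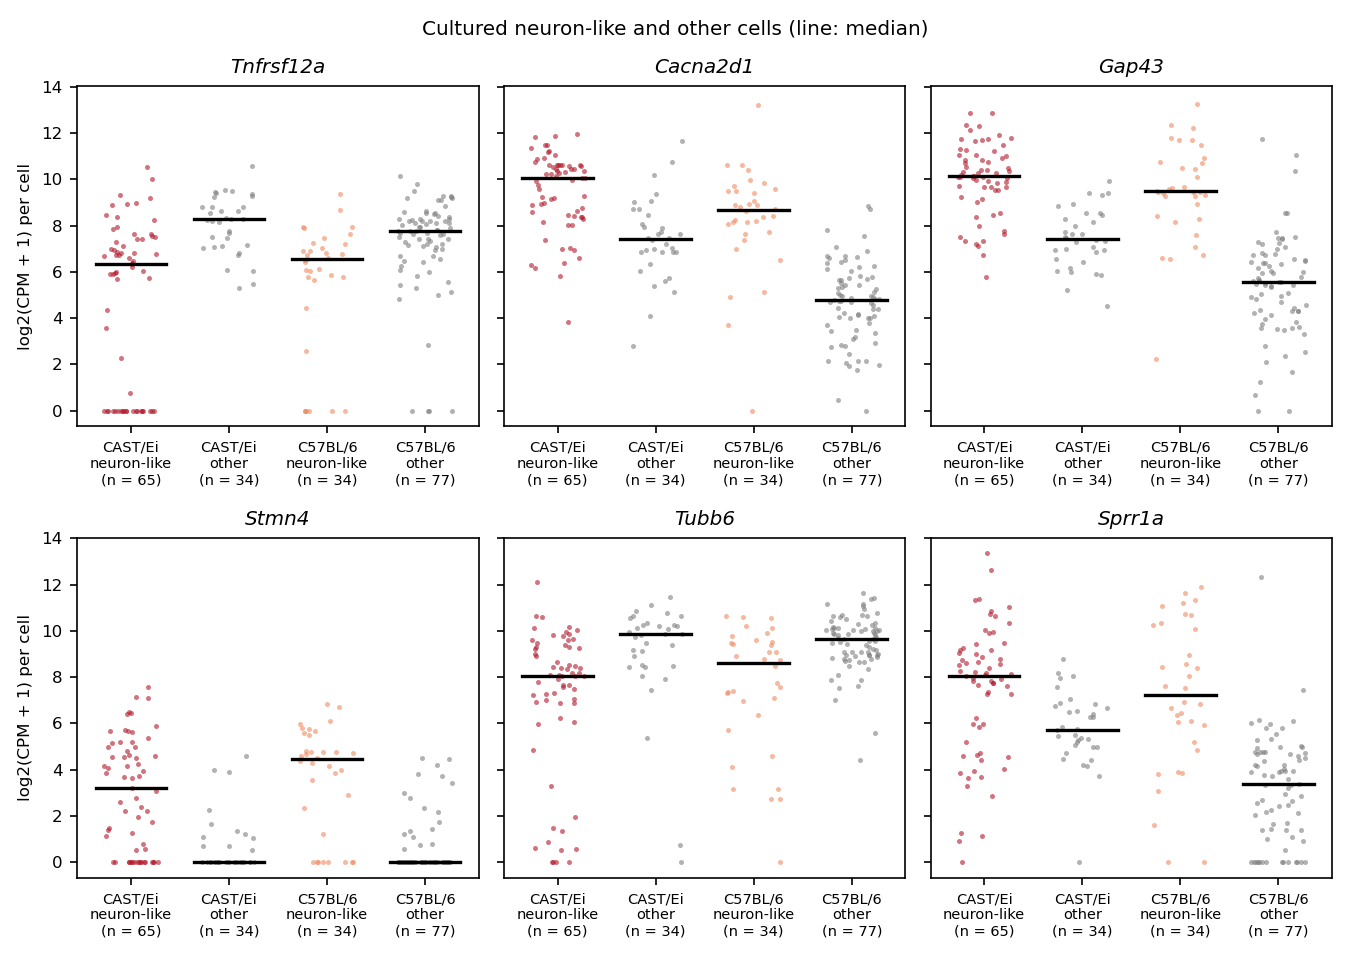
Level of each gene in every cultured cell as log2(CPM + 1), with neuron-like cells in colour and other cells in grey for each strain, and a black line at the median. Gap43, Cacna2d1, Stmn4 and Sprr1a sit higher in neuron-like cells, Tnfrsf12a and Tubb6 in other cells.

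Tubb6 and Tnfrsf12a were at their highest outside the neurons. Tubb6 summed to 435 CPM in neuron-like and 909 CPM in other CAST/Ei cells, 2.09-fold lower (2.06 to 2.12), and to 395 and 893 CPM in C57BL/6, 2.26-fold lower (2.21 to 2.32). Tnfrsf12a summed to 103.4 and 320 CPM in CAST/Ei, 3.09-fold lower (3.004 to 3.18), and to 98.6 and 223 CPM in C57BL/6, 2.26-fold lower (2.16 to 2.38). All 34 other CAST/Ei cells had a read of Tnfrsf12a. The fibroblast-like cluster 9 had a Tubb6 median of 802 CPM and the satellite or Schwann-like clusters 10 and 12 medians of 1025 and 681 CPM. Naive cells of the mixed cluster 5 also held both genes high, with Tubb6 at 639 CPM in CAST/Ei and 343 CPM in C57BL/6 and Tnfrsf12a at 395 and 152.6 CPM. The lower calls hang on scaling: size factors from the median of gene ratios moved the median of all genes in C57BL/6 to 0, against -0.38 on the log2 scale without them, and gave -0.76 for both genes there, and -0.89 for Tubb6 in CAST/Ei. That scaling turned 1990 higher and 3121 lower genes in C57BL/6 into 2677 and 1865.

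Neuronal RNA was also seen in the other cultured cells, and more of it in CAST/Ei. The 14 neuron markers had a median summed level of 9322 CPM in neuron-like and 1235 CPM in other CAST/Ei cells, and of 6871 and 598 CPM in C57BL/6. Sprr1a at 5 or more of 200000 reads was found in 27 of 32 other CAST/Ei cells (84.4%, 67.2 to 94.7%) and 20 of 69 other C57BL/6 cells (28.99%, 18.7 to 41.2%), where the median depths were 1503440 and 869702 reads. In neuron-like cells, at median depths of 858919 and 535886 reads, the shares were 79.3% and 78.6%. In CAST/Ei the share thus does not separate neuron-like from other cells, and only the level does. Markers of the other types were in turn present in cultured neuron-like cells. Against naive neuron-like cells, 9 of 14 satellite and Schwann markers were 2-fold higher in CAST/Ei and 10 of 14 in C57BL/6. Their summed level ran between 748 and 10515 CPM in CAST/Ei cultured (median 2823), 381 and 7037 CPM in C57BL/6 cultured (3130), 90.3 and 34207 CPM in CAST/Ei naive (2092) and 61.5 and 21369 CPM in C57BL/6 naive neuron-like cells (1535). Of 8 fibroblast markers 6 were higher in each strain. Their sums ran between 9.97 and 20452 CPM in CAST/Ei cultured (median 896), 0 and 6570 CPM in C57BL/6 cultured (407), 0 and 6404 CPM in CAST/Ei naive (41.04) and 0 and 14990 CPM in C57BL/6 naive cells (11.8). All 8 cell division genes were higher in both strains, at median sums of 683 CPM in CAST/Ei cultured, 883 CPM in C57BL/6 cultured, 0.826 CPM in CAST/Ei naive and 1.09 CPM in C57BL/6 naive cells. No marker of these 3 lists was without a read in any of the 4 sets, and their part in the results was not tested.

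Because Tnfrsf12a and Tubb6 are high in those other types, their culture difference was taken again without the neuron-like cells of each group above the upper quartile of the satellite and Schwann marker mean. Tnfrsf12a was then 62.4 CPM in CAST/Ei cultured against 6.09 CPM in naive cells and 84.3 CPM in C57BL/6 cultured against 5.61 CPM in naive cells, log2 ratios of 3.16 and 3.69. Tubb6 was 438 against 36.1 CPM in CAST/Ei and 384 against 25.3 CPM in C57BL/6, at 3.56 and 3.87. All 4 ratios were larger than over all neuron-like cells. However, Tnfrsf12a fell in both sets of each strain. The levels over all neuron-like cells were 103.4 CPM in cultured and 15.04 CPM in naive CAST/Ei cells, and 98.6 and 7.52 CPM in C57BL/6. The step was set by satellite and Schwann markers alone. It cannot speak to RNA of fibroblast-like cells, and the part of RNA from other cells was not tested. Across cells, Tnfrsf12a went with the number of genes detected (Pearson r = 0.66 over 65 CAST/Ei and 0.76 over 34 C57BL/6 cultured neuron-like cells, from shared libraries) and with the satellite and Schwann marker mean (0.63 and 0.51).

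Ratios between the strains depended on the cells and scaling used. With all cells, none of the 6 was past 2-fold between CAST/Ei and C57BL/6, either in cultured neuron-like cells, where 21.3% of all genes were 2-fold higher and 13.5% lower in CAST/Ei, or in naive ones, where 8.31% were higher and 6.39% lower. At the naive shares, finding none past 2-fold is no result about the 6 genes. In cultured cells Gap43 differed 1.03-fold (1.01 to 1.04), Sprr1a 1.02-fold (1.003 to 1.05), Tnfrsf12a 1.05-fold (0.996 to 1.11) and Tubb6 1.10-fold (1.07 to 1.13). With median-of-ratios size factors the signs of these 4 turned, to log2 ratios of -0.13, -0.14, -0.10 and -0.03, and 2401 higher and 1520 lower genes overall became 1968 and 1893. Stmn4 was 0.534 times as high in CAST/Ei (0.474 to 0.601), the widest gap, and passed 2-fold with those size factors at a log2 ratio of -1.02. Cacna2d1 differed 1.28-fold with all cells, although its cell medians were 1066 CPM in CAST/Ei and 409 CPM in C57BL/6. It passed 2-fold without the cell with the most reads in each set, at 1239 CPM in CAST/Ei and 549 CPM in C57BL/6, a log2 ratio of 1.17. With cluster 8 alone its log2 ratio was 1.45. With cluster 11 alone, Tubb6 was higher in CAST/Ei at 2.61 and Stmn4 lower at -1.04. That setting compared 31 CAST/Ei with only 10 C57BL/6 cells. Of all 11251 genes, 4962 were then 2-fold higher and 2132 lower in CAST/Ei, with a median log2 ratio of 0.70. Over all CAST/Ei cultured neuron-like cells, 1 cell held 30.9% of the Tubb6 reads. Each strain is 1 sample with its cultures not named, so a small ratio does not show that the strains act alike.

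Among naive neuron-like cells Tnfrsf12a came closest to 2-fold, at 15.04 CPM in CAST/Ei and 7.52 CPM in C57BL/6 (2.00-fold, 1.82 to 2.20, log2 ratio 0.91 with the pseudocount). Without the cells above the upper quartile of the satellite and Schwann mean it was 6.09 CPM in CAST/Ei and 5.61 CPM in C57BL/6, and without the cell with the most reads in each set it passed 2-fold at 12.6 and 5.71 CPM, a log2 ratio of 1.02. Cacna2d1 was 1.601-fold higher in CAST/Ei (1.58 to 1.62), Tubb6 1.53-fold (1.46 to 1.604), while Gap43 at 0.878 times and Stmn4 at 0.762 times were lower. Sprr1a had the largest naive ratio, 43.6-fold (7.66 to 1739), but from 0.647 CPM in CAST/Ei, mostly of 1 cell, and 1 read in C57BL/6. The 13 reads of Sprr1a in 1 cell of cluster 1 make this ratio smaller when that cluster is counted. Its log2 ratio was 0.70 with the pseudocount of 1 CPM and 2.70 with one of 0.1 CPM. With cluster 1 counted as neuron-like, the log2 ratios of Gap43 and Stmn4 turned from -0.19 and -0.34 to 0.27 and 0.06. The naive strains also hold different mixes of neuron clusters, since clusters 2, 4 and 7 had no CAST/Ei naive cell and clusters 13, 14 and 15 no C57BL/6 one.

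**Figure D4:**
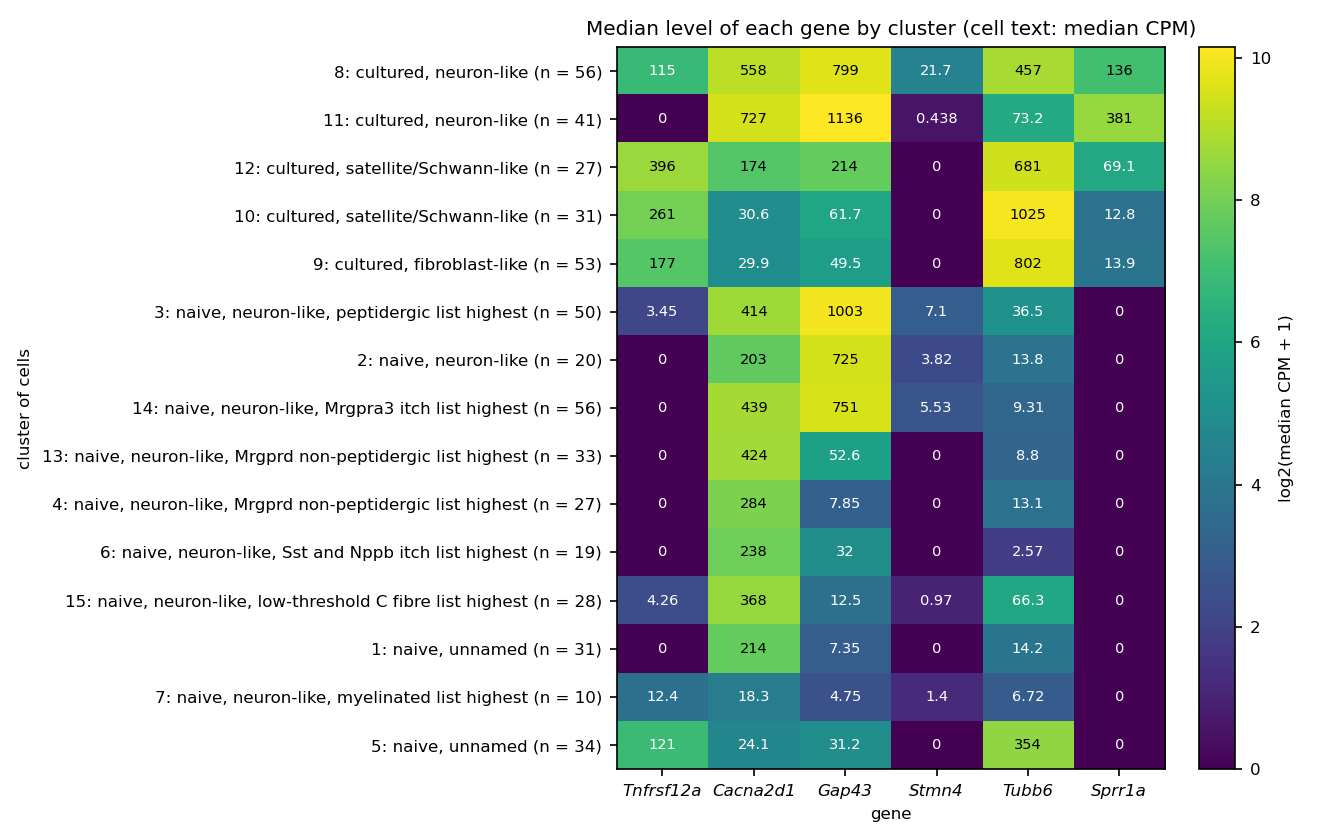
Median level of each gene (columns) in the 15 clusters (rows, cultured clusters on top), as colour for log2(median CPM + 1) with the median CPM printed in each field. Gap43 spans 4.75 to 1003 CPM over naive clusters, while Sprr1a has a median of 0 in all of them.

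Naive neurons differed strongly among themselves in Gap43. Its median was 1003 CPM in cluster 3, where the peptidergic list was highest and Tac1, the substance P precursor, was a leading gene, 751 CPM in cluster 14, with Mrgpra3, a receptor of itch neurons, among its leading genes, and 725 CPM in cluster 2, led by Mrgpra2a. It was 52.6 CPM in cluster 13 and 7.85 CPM in cluster 4, both with Mrgprd among their leading genes, a receptor of non-peptidergic nociceptors. The median was 31.985 CPM in cluster 6, led by Sst and Nppb, 12.5 CPM in cluster 15, where the list of low-threshold C fibres was highest, and 4.75 CPM in cluster 7, where the list of myelinated neurons was. Cluster 3 held cells of both strains and summed to 946 CPM in CAST/Ei and 992 CPM in C57BL/6. High Gap43 without culture was not joined by Sprr1a, which summed to 3.01 CPM in CAST/Ei and had no read in the 23 C57BL/6 cells of that cluster. Stmn4 was highest in the same 3 clusters as Gap43, with medians of 7.10, 5.53 and 3.82 CPM in clusters 3, 14 and 2. Below these the orders differed, since Stmn4 had medians of 1.40 and 0.97 CPM in clusters 7 and 15 and of 0 in clusters 4, 6 and 13. Over single naive neuron-like cells the 2 genes had r = 0.37 in CAST/Ei and 0.56 in C57BL/6, over 241 cells in all.

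Cacna2d1 was more even. Its naive medians lay between 203 and 439 CPM in 7 of the 8 naive neuron-like clusters, of which clusters 4 and 14 include 1 cultured cell each, and the 10 cells of the myelinated cluster 7 lay lower, at 18.3 CPM. Tubb6 was highest among naive neuron-like clusters in cluster 15, at 66.3 CPM, and lowest in cluster 6, at 2.57 CPM. Clusters 15 and 1, in both of which the low-threshold C fibre list was highest, shared low Gap43 (12.5 and 7.35 CPM), but not Tubb6 (66.3 and 14.2 CPM).

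Over the 210 cultured cells of all types, the genes most like each member were sought among 9275 genes of at least 10 CPM, by Pearson correlation of log2(CPM + 1). Gap43 went most closely with Stmn2 (r = 0.82, and 0.83 in the 99 CAST/Ei and 0.77 in the C57BL/6 cells), another stathmin of growth cones, then with Tubb3 (0.74) and Stmn3 (0.74). Cacna2d1 went with Elavl4 (0.76, and 0.55 in CAST/Ei and 0.71 in C57BL/6), Cadm3 (0.74) and Snap25 (0.74). Sprr1a went with Sox11 (0.60, and 0.37 in CAST/Ei and 0.61 in C57BL/6), Stmn2 (0.58) and Avil (0.56). Stmn4 went with 3632451O06Rik (0.63, and 0.59 in CAST/Ei and 0.68 in C57BL/6), Disp2 (0.62) and Avil (0.62). Tnfrsf12a went with Mrpl14 (0.69, and 0.71 in CAST/Ei and 0.62 in C57BL/6), Ece1 (0.69) and Tax1bp3 (0.68), and Tubb6 with Copb2 (0.60, and 0.70 in CAST/Ei and 0.38 in C57BL/6), Lsmd1 (0.59) and Pmf1 (0.59). Over these cells neurons are mixed with other types, and within the 34 C57BL/6 neuron-like cells the correlation of Sprr1a with Sox11 was 0.09. There the first-named pair had r = 0.35 for Gap43, 0.51 for Cacna2d1, 0.56 for Stmn4, 0.93 for Tnfrsf12a and 0.45 for Tubb6. Within CAST/Ei neuron-like cells the first pairs had 0.77 for Gap43, 0.40 for Cacna2d1 and 0.32 for Sprr1a. They had 0.53 for Stmn4, 0.83 for Tnfrsf12a and 0.66 for Tubb6. Among the 6 genes themselves, inside cultured neuron-like cells, Tnfrsf12a and Tubb6 went together most steadily (0.38 in CAST/Ei and 0.62 in C57BL/6). Both also went with the number of genes detected in these cells. For Tnfrsf12a r was 0.66 in CAST/Ei and 0.76 in C57BL/6, and for Tubb6 it was 0.52 in each strain. The part of this in the pair was not tested.

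The genes around the 6 did not move as a block. Of the other genes on 10 lists, 37 were 2-fold higher and 22 lower in CAST/Ei cultured neuron-like cells, and 33 higher and 26 lower in C57BL/6 ones, 63 lying between in each strain, with medians of 0.12 and 0.01 on the log2 scale. Read against all genes, of which 23% were higher and 22.4% lower in CAST/Ei and 21.1% higher and 23% lower in C57BL/6, the lists together lay near the background.

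The other tubulins did not share the direction of Tubb6. None of 13 other tubulin genes was 2-fold higher, while 7 were lower in CAST/Ei and 5 in C57BL/6, the median log2 ratios being -1.16 and -0.70, and the rest lay within 2-fold. Tubb4a was 50.4 CPM in CAST/Ei cultured against 592 CPM in naive cells, and 126.1 CPM in C57BL/6 cultured against 604 CPM in naive cells. Tuba4a was 25.005 against 93.4 CPM in CAST/Ei and 32.4 against 179 CPM in C57BL/6. Of 8 other stathmins and collapsin response mediators, relatives of Stmn4 and their partners, only Dpysl4 was higher in CAST/Ei (15.5 against 2.32 CPM) and only Dpysl2 lower in C57BL/6 (4465 against 9823 CPM). Of 14 microtubule-associated proteins, Dclk1 and Map2 were higher in both strains. Dclk1 was 1024 against 130.8 CPM in CAST/Ei and 931 against 130 CPM in C57BL/6, and Map2 was 77.3 against 29.5 CPM in CAST/Ei and 737 against 40.7 CPM in C57BL/6. None of the 14 was lower in CAST/Ei and 4 were in C57BL/6, among them Mapt, the tau gene, at 63.8 against 290 CPM, and Mapre3 at 5.09 against 26.6 CPM.

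Growth cone membrane and actin proteins, the nearest relatives of Gap43 in function, were more often higher: 17 of 28 in CAST/Ei and 11 of 28 in C57BL/6, with 2 and 4 lower. Marcksl1 and Marcks, which like Gap43 are protein kinase C substrates of the inner membrane, led in C57BL/6 at 59.2 against 5.09 CPM and 3662 against 511 CPM. Fscn1, an actin-bundling protein, was 19.1 against 1.17 CPM in CAST/Ei, and Arpc2, of the Arp2/3 complex, 533 against 112.1 CPM. Coro1a was lower in both, at 11.6 against 126.05 CPM in CAST/Ei and 9.47 against 102.2 CPM in C57BL/6, Pcp4 was lower in C57BL/6 at 6.92 against 162.97 CPM, and Arpc3 in CAST/Ei at 2.61 against 10.8 CPM. Of 13 kinases and partners of GAP-43, 2 were higher and 4 lower in CAST/Ei and none higher and 5 lower in C57BL/6. Camk2a and Camk2b were lower in both, Camk2a at 18.3 against 84.9 CPM in CAST/Ei and 10.5 against 108.3 CPM in C57BL/6, while Prkcb and Calm3 were higher in CAST/Ei, Calm3 at 507 against 156.99 CPM.

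**Figure D5:**
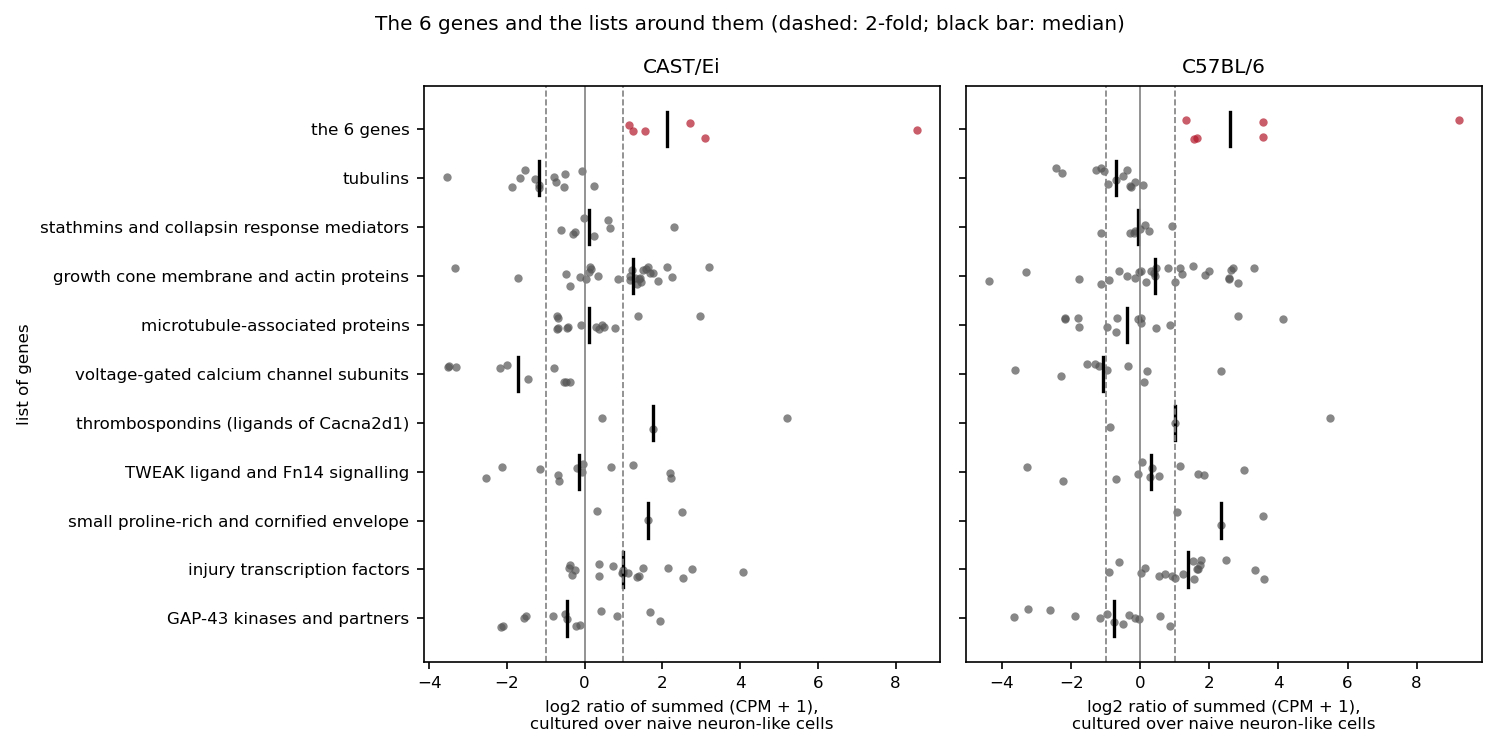
Log2 ratio of cultured over naive neuron-like cells (horizontal axis) for the 6 genes in red and each gene of the 10 lists in grey (rows), for CAST/Ei on the left and C57BL/6 on the right. All 6 genes lie right of the 2-fold line, whereas the medians of tubulins and calcium channel subunits lie left of 0.

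The other calcium channel subunits were seldom higher either. Of 10, 6 were lower in CAST/Ei and 5 in C57BL/6, and only Cacna1a was higher, in C57BL/6, at 53.4 against 9.84 CPM. Its relative Cacna2d3 was lower in both, at 4.57 against 24.2 CPM in CAST/Ei and 5.15 against 14.1 CPM in C57BL/6, and Cacna2d2 was lower in CAST/Ei at 3.33 against 42.2 CPM. Cacna1e, a pore subunit of R-type channels, was 1.26 against 24.5 CPM in CAST/Ei and 1.55 against 30.3 CPM in C57BL/6. Cacng5 was 0.118 against 11.9 CPM in CAST/Ei, and Cacna1c 4.21 against 14.2 CPM in C57BL/6. Of 3 thrombospondin genes, ligands of alpha-2-delta-1, Thbs2 was higher in both at 72.2 against 0.980 CPM in CAST/Ei and 74.1 against 0.683 CPM in C57BL/6, and Thbs1 in CAST/Ei at 53.99 against 15.2 CPM. All 3 were lower in neuron-like than in other C57BL/6 cultured cells, and 2 of 3 in CAST/Ei.

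Of 12 genes of signalling through the TWEAK receptor, 3 were higher and 3 lower in CAST/Ei, and 4 higher and 2 lower in C57BL/6. Over all genes 23% were higher and 22.4% lower in CAST/Ei and 21.1% higher and 23% lower in C57BL/6, so these counts are no result about the list, and its genes are given for their roles. Traf3, an adaptor of this receptor family, was 33.3 against 6.47 CPM in CAST/Ei and 68.9 against 7.75 CPM in C57BL/6, and the GTPase gene Rac1 568 against 121.8 CPM in CAST/Ei and 426 against 133.1 CPM in C57BL/6. Map3k14, the kinase NIK of the non-canonical NF-kappa-B branch, was 1.38 against 9.36 CPM in CAST/Ei and 0.277 against 11.3 CPM in C57BL/6. Nfkb1 was higher in C57BL/6 at 18.3 against 4.38 CPM, and Birc2 lower in CAST/Ei at 24.7 against 55.7 CPM. Only 3 genes linked with Sprr1a in the cornified envelope were in the table; Anxa1 and S100a11 were higher in both strains, Anxa1 at 218 against 37.4 CPM in CAST/Ei and 137.96 against 10.9 CPM in C57BL/6. Anxa1 was also 2-fold lower in neuron-like than in other cultured cells of both strains.

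Injury transcription factors were higher in 8 of 18 cases in CAST/Ei and 11 of 18 in C57BL/6, with none lower and medians of 0.99 and 1.38. Sox11 led in both, at 1776 against 103.9 CPM in CAST/Ei and 3242 against 268 CPM in C57BL/6. Fosl2, an AP-1 factor, was 431 against 62.4 CPM in CAST/Ei, and Cebpb 43.7 against 3.47 CPM in C57BL/6. Jun, named after its values were seen, stood at 409 CPM in CAST/Ei cultured, 564 CPM in C57BL/6 cultured, 161.3 CPM in CAST/Ei naive and 175 CPM in C57BL/6 naive cells. Any part of these factors in the level of Sprr1a was not tested.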

How the data were processed

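The data are 516 single-cell libraries prepared on a Fluidigm C1 chip. The deposited table gives whole read counts per gene; per the submitters' processing notes, Bowtie2, SAMtools and mouse build mm10 were used. How reads were assigned to genes, including strand and reads fitting several genes, is not given in the sources used here. As mm10 is a C57BL/6 assembly, CAST/Ei reads may map differently, which was not tested. All 11251 genes have a read in at least 60 cells.

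Cells were clustered with scanpy 1.11.5 on log2(CPM + 1) of 2000 variable genes without the 6 genes and lists (20 principal components, 15 neighbours, Leiden resolution 1). No doublet caller was run and no cell was removed. Reads were summed per group and class. Fold intervals (95%) and shares (exact binomial) cover counting error only. Coordinates come from a mm10 gene annotation and promoter letters from RefSeq.

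The 6 genes and the lists were chosen with earlier results of these data known. List genes were named by a rule: the 2 highest and 2 lowest past 2-fold with at least 10 CPM in either sum, and genes of a member's own family; single cells were picked after their values were seen. Counting cluster 1 as neuron-like, leaving out the top cell, and using cluster 8 or 11 alone were alternatives chosen after seeing the data.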

Additional observations from a re-analysis of the deposited data

How the results depend on the processing

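No paired analysis was possible because the numbers in the titles only name cells. Over 14 alternatives no called ratio changed sign. All 24 called ratios kept their side without cells under 200000 reads, without the cells above the satellite quartile and with a minimum of 10 CPM. A pseudocount of 0.1 CPM put 1 gene above 2-fold between naive strains (Sprr1a, 2.70), and a pseudocount of 10 CPM ended 3 calls of Stmn4. Median-of-ratios size factors put 1 gene below 2-fold between cultured strains (Stmn4) and left 0 genes lower in C57BL/6 and 1 in CAST/Ei neuron-like against other cells. Means of each cell's CPM ended the lower call of Tubb6 in C57BL/6, at -0.95, which left 1 gene lower there. Classing by each cell's highest list, by Ward clusters or with the 6 genes included ended that of Tubb6 in CAST/Ei. Its log2 ratios were then -0.98, -0.99 and -0.94, which left 1 gene lower there. Without the top cells, 1 gene was higher between strains in naive (Tnfrsf12a) and 1 in cultured cells (Cacna2d1). With cluster 8 alone, 22 list genes were higher in CAST/Ei in place of 37. Over all 11251 genes the count fell as well, to 1963 in place of 2592, so the drop is no result about the lists. In that setting 1 of the 6 genes was higher between cultured strains (Cacna2d1, 1.45), and 0 were lower in C57BL/6 and 1 in CAST/Ei neuron-like against other cells. With cluster 11 alone, 1 gene was higher (Tubb6, 2.61) and 1 lower (Stmn4, -1.04) between cultured strains, and 1 was lower in CAST/Ei neuron-like against other cells. Of all 11251 genes, 4962 were higher and 2132 lower between cultured strains in that setting, which held 10 C57BL/6 cells. Beyond what these settings remove, the cause was not tested. Depth limits Stmn4 and naive Sprr1a, where sums rest on few reads.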
